A study of Homo sapiens with 54 samples.

Results

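The comparison is that of PEA2 cells after 24 h in 80 µM carboplatin with untreated PEA2 cells. Its 6 libraries, 3 per group, were taken by the cell line, treatment time and replicate in their names from the 54 libraries of the series. PEA2 is an established high grade serous ovarian cancer line that the labels call platinum resistant, and its partner from the same patient, PEA1, is platinum sensitive. The series covers 3 such pairs of lines, each measured by total RNA sequencing without drug and after 8 h and 24 h of carboplatin. All groups used here grew in RPMI medium with 10% fetal bovine serum for 48 h before treatment. The labels set the untreated group at time 0, but by the text on the whole series its control cells received vehicle and were taken at 24 h. That text also has the dose in mM, against µM in the treatment protocol. Each line is a single cell line, so the replicates are cultures of 1 line, prepared on 3 different days according to the depositors. The untreated cultures were at passage 23, 24 and 24, and the cultures at 24 h were at passage 25, 26 and 27, so passage and treatment cannot be told apart.

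Carboplatin enters cells, binds purine bases and leaves adducts and crosslinks in DNA that block replication forks and elongating RNA polymerase II. Cells remove adducts by nucleotide excision repair, repair crosslinks through the Fanconi anaemia pathway and homologous recombination, or copy past them with translesion polymerases. A damaged cell with working p53 raises genes such as CDKN1A, MDM2 and GADD45A, and long-lived messages outlast short-lived ones wherever transcription is blocked.

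The 6 libraries listed 14252 to 15691 of 25435 genes above 0 TPM, fewer at 24 h (14252 to 14948) than without drug (15266 to 15691). TPM is a share of all transcripts in a library, corrected for transcript length. The number of reads behind a value cannot be told from it, nor can its counting error. Values below are TPM rescaled between libraries by the median ratio over 8287 genes. Log2 changes are differences of group means of log2(rescaled TPM + 1), a scale that shrinks the changes of genes near 0. They come with a standard error (SE) from 1 limma model of the 42 libraries of the series that listed at least 12000 genes, and a gene is called at a Benjamini-Hochberg adjusted p under 0.05 over the 18013 genes tested. The labels and the depositors give no more of the cultures than passage and day. The p-values rest on a spread between cultures that the model pools over 17 groups. It is therefore not the spread of the PEA2 cultures alone. The make-up of the libraries moved with treatment. Cytosolic ribosomal protein genes held 13% to 13.7% of TPM without drug and 19.8 to 21.5% at 24 h, the RNA components of RNase MRP and RNase P (RMRP and RPPH1) held 7.14 to 7.95% and 10.2 to 11.4%, and 27, 31 and 43 of 378 olfactory receptor genes were above 0 without drug against 11, 10 and 8 at 24 h. The part of these shifts in the gene results was not tested. In such bulk libraries fewer cells of a type and less RNA per cell cannot be told apart.

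**Figure D1:**
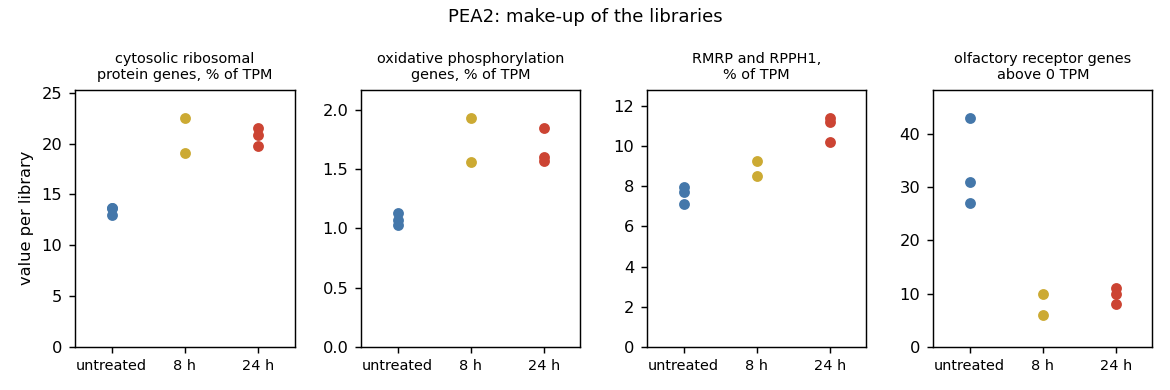
Make-up of each PEA2 library kept in the model (points) without drug and after 8 h and 24 h of carboplatin. The y axes give the percent of deposited TPM in 3 gene groups and the number of olfactory receptor genes above 0 TPM. The 3 libraries at 24 h lie apart from the 3 untreated libraries in each panel.

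The epithelial markers EPCAM, CDH1, KRT7, KRT8, KRT18, KRT19, CLDN3 and CLDN4 were all above 1 rescaled TPM in each library and summed to 2688 to 3594 without drug and 3899 to 4667 at 24 h. Of the Müllerian and serous markers, PAX8, WT1, MUC16, SOX17, MSLN and WFDC2, none was at 0 throughout, and their sum was 177.2 to 197.7 without drug and 159.2 to 180.5 at 24 h. Fibroblast markers were near absent, with 5 of 10 listed at 0 in all 6 libraries, 8 of 10 under 1, and sums of 5.73 to 6.88 without drug and 1.38 to 2.27 at 24 h. THY1 was the called member, lower at 24 h. Leukocyte markers summed to 83 to 105.5 and 72.4 to 105.5 with 6 of 12 listed at 0, and CD74 and CD68 gave most of the sum. Endothelial markers summed to 128.9 to 166.2 and 133.5 to 158.5 with 2 of 9 at 0, nearly all from CDH5. Mesothelial markers, of which MSLN and WT1 are also on the serous list, summed to 92.5 to 105.2 and 82.9 to 92.4 with 1 of 8 at 0.

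After 24 h of carboplatin, 856 of 18013 genes were higher and 2251 were lower than without drug, which is 4.75% and 12.5% of the genes tested. Each count of list members below is to be read beside these shares, also where they are not repeated. The changes were unequal in size, since 516 of the higher genes and 2026 of the lower genes differed by more than 2-fold, and 319 genes were lower by more than 3 on the log2 scale against 12 higher by as much. The 3 libraries of one group did not overlap those of the other in 823 of the higher and 2168 of the lower genes, against 3066 (17%) and 4159 (23.1%) of all genes tested. Among the higher genes were members of the respiratory chain, the ribosome, the proteasome and DNA replication and the secreted factors CXCL8 and CSF2. Among the lower genes were large chromatin regulators, the RNA polymerase II subunit POLR2A, the nuclear RNAs MALAT1 and NEAT1, pregnancy-specific glycoprotein genes and TNFRSF11B. The balance of the 2 directions rests on the scaling, since 147 genes were higher and 3147 lower without rescaling, where the median change of all genes moved from -0.01 to -0.34 and the share of higher genes among the calls from 27.6% to 4.46%. The number of higher genes was 659 without the first untreated library, 505 and 413 without the second and the third, and 400, 367 and 521 without the first, the second and the third library at 24 h, whereas that of lower genes stayed between 1611 and 1974. With all 54 libraries in the model, the shallow ones included, 13 genes were higher and 400 lower. Of the genes named by rule, 159 were called and 84 of these stayed called without any 1 of the 6 libraries, and where a gene given below with its values did not, the library concerned is named.

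**Figure D2:**
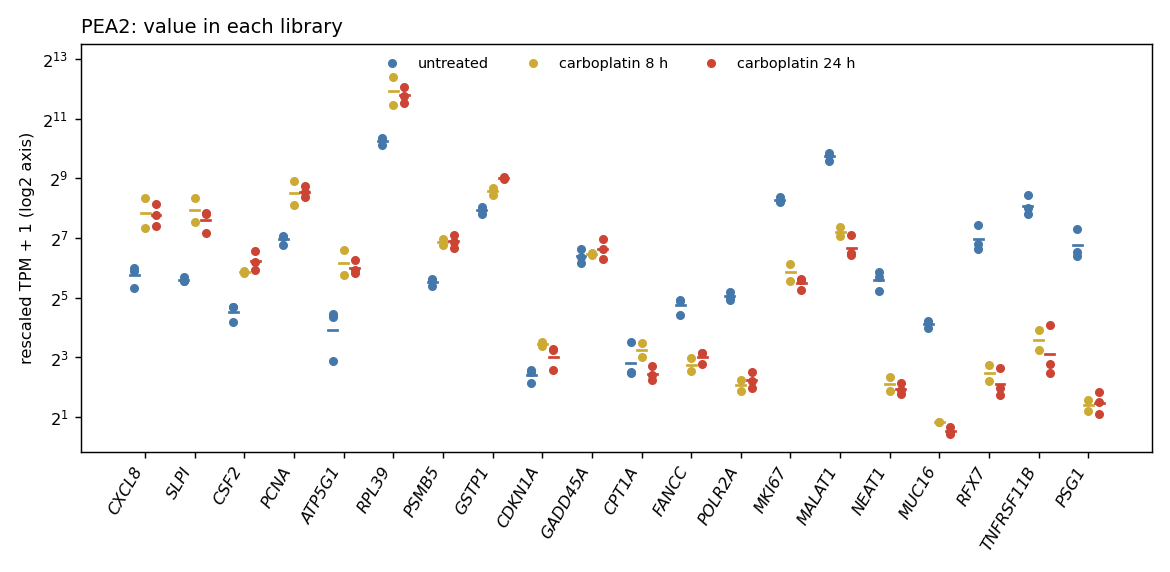
Rescaled TPM plus 1 of 20 genes (x axis) in each PEA2 library, on a log2 axis, with points for libraries and short lines for group means of the log values. CXCL8 is higher and TNFRSF11B and PSG1 are lower in each library at 24 h than in each untreated library, while CPT1A and GADD45A overlap. CXCL8, TNFRSF11B and PSG1 belong to a set chosen for groups that do not overlap.

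The higher genes of greatest log2 change among those named by rule had diverse roles. This set, like that of the lower genes of greatest change, held only genes whose groups did not overlap. Separation of the groups was thus fixed by the rule for its members. Among them are MGST3, ATP5G1, CXCL8 and SLPI, and of the lower genes TNFRSF11B, RFX7, PSG1 and PSG6. TMEM14A, a small membrane protein of mitochondria, stood at 5.67, 2.96 and 1.62 in the untreated libraries and 15.4, 25.4 and 23.3 at 24 h. PSENEN, a subunit of the gamma-secretase that cleaves Notch receptors, stood at 3.75, 1.3 and 0.711 in the untreated libraries and 13.4, 15.8 and 10.3 at 24 h. Their log2 changes were 2.42 (SE 0.55, adjusted p = 0.00216) and 2.40 (SE 0.50, adjusted p = 0.00098). GTF2B, the general transcription factor TFIIB that places RNA polymerase II at the start site, had a log2 change of 2.18 (SE 0.47, adjusted p = 0.00131), and SEPW1, a small selenoprotein, one of 2.15 (SE 0.57, adjusted p = 0.00817). MGST3, ATP5G1, CXCL8 and SLPI, described with their groups below, belonged to the same set, as did SEC11C, POLR3K and ABRACL, and the long noncoding RNA SFTA1P, which was listed at 0 in 2 untreated libraries and stood at 9.53, 9.45 and 12.7 at 24 h. The call of SEC11C was lost without the third untreated library or the second or the third at 24 h (adjusted p of 0.0514 to 0.115). That of POLR3K was lost without the first or the third untreated library or the first or the second at 24 h (0.0726 to 0.252), and that of ABRACL without the second or the third library of either group (0.0718 to 0.159).

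Of 29 tested p53 target genes, 2 were higher and 2 were lower, beside 4.75% and 12.5% of all genes. Their median log2 change was 0.26, beside -0.01 for all genes. CDKN1A, which encodes the cell cycle inhibitor p21, stood at 4.97, 4.77 and 3.42 in the untreated libraries and 8.63, 8.48 and 4.99 at 24 h. The libraries at 24 h all lay above the untreated ones and the log2 change was 0.61 (SE 0.63, adjusted p = 0.589). MDM2, the ubiquitin ligase that degrades p53, stood at 16.0, 15.1 and 13.9 in the untreated libraries and 15.9, 18.6 and 14.5 at 24 h. GADD45A, a damage-induced growth arrest gene, stood at 97.9, 70.2 and 82.1 in the untreated libraries and 125, 97.2 and 77.8 at 24 h. Both overlapped between the groups, with log2 changes of 0.11 (SE 0.30, adjusted p = 0.901) and 0.25 (SE 0.33, adjusted p = 0.717). The 2 higher members were FAS, a death receptor, and FBXO22, a subunit of a ubiquitin ligase. FAS went from 12.4, 8.61 and 13.6 to 25.2, 27.4 and 32.3 with a log2 change of 1.24 (SE 0.36, adjusted p = 0.0171), a call lost without the second untreated library (adjusted p = 0.0862) or the third at 24 h (adjusted p = 0.0635). The lower members were POLH, described with the translesion genes, and TP53INP1, which encodes a nuclear partner of p53. TP53INP1 was 24.7, 22.6 and 54.3 without drug and 1.86, 1.16 and 2.7 at 24 h, a log2 change of -3.51 (SE 0.51, adjusted p = 1.15e-05). It lies within NDUFAF6 on the opposite strand. None of the 16 members that no other annotated gene overlaps was called, where 5.79% of all such genes were higher and 8.35% lower.

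Nucleotide excision repair had 6 of 25 members higher and 1 lower, with a median log2 change of 0.22. RPA2 and RPA3 encode subunits of the protein that coats single-stranded DNA. RPA2 stood at 11.3, 5.77 and 8.94 in the untreated libraries and 23.3, 29.4 and 33.0 at 24 h, and no library at 24 h overlapped an untreated one, at a log2 change of 1.64 (SE 0.36, adjusted p = 0.00161). RPA3 stood at 13.7, 13.2 and 12.5 in the untreated libraries and 41.4, 61.7 and 44.4 at 24 h, with a log2 change of 1.81 (SE 0.58, adjusted p = 0.0311), a call lost without any 1 of the 6 libraries (adjusted p of 0.0598 to 0.114). CETN2, a partner of XPC, and GTF2H1, GTF2H2 and GTF2H3, subunits of the repair and transcription factor TFIIH, were higher too, but GTF2H2 has near-identical copies between which reads may have been split, so its log2 change of 3.70 is uncertain. UVSSA, which acts on stalled RNA polymerase, was the lower member. The damage sensors XPC and DDB2 were not called, at log2 changes of -0.54 (adjusted p = 0.392) and 0.30 (adjusted p = 0.631). With 1 of the 6 libraries left out, 3 to 4 members of the list were higher.

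Of 18 genes of the Fanconi anaemia pathway, 1 was higher and 3 were lower, beside 4.75% and 12.5% of all genes. UBE2T, the enzyme that loads ubiquitin onto FANCD2, stood at 48.2, 36.8 and 44.2 in the untreated libraries and 155, 165 and 145 at 24 h. All libraries at 24 h were far above the untreated ones, with a log2 change of 1.83 (SE 0.53, adjusted p = 0.0148). This call was lost without the second untreated library (adjusted p = 0.0527) or the second at 24 h (adjusted p = 0.0511). FANCC, a subunit of the core complex, stood at 20.5, 29.6 and 28.7 in the untreated libraries and 5.92, 7.87 and 7.79 at 24 h. FANCA, another subunit, stood at 35.7, 36.8 and 49.9 in the untreated libraries and 10.8, 14.4 and 13.6 at 24 h. For both, every library at 24 h lay below every untreated one, with log2 changes of -1.73 (SE 0.32, adjusted p = 0.000253) and -1.58 (SE 0.29, adjusted p = 0.000257). SLX4, a nuclease scaffold, was the other lower member, and FANCD2 itself was not called, at a log2 change of 0.38 (SE 0.24, adjusted p = 0.329). In homologous recombination, EXO1 and RBBP8, which act in end resection, were higher and XRCC3 and RAD54L were lower among 21 members. Over all genes 4.75% were higher and 12.5% lower. With 1 of the 6 libraries left out, 0 to 2 members were higher and 1 to 2 were lower. The calls of EXO1, RBBP8 and RAD54L were lost in several of those fits. BRCA1 had a log2 change of -0.09 (SE 0.31, adjusted p = 0.943).

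Among 13 translesion genes PCNA was higher and the 3 lower ones were polymerases. POLH, the polymerase eta gene, stood at 29.8, 29.4 and 29.4 in the untreated libraries and 9.1, 9.67 and 10.8 at 24 h, with a log2 change of -1.50 (SE 0.26, adjusted p = 0.000141). REV3L, the catalytic subunit of polymerase zeta, stood at 11.7, 11.6 and 10.5 in the untreated libraries and 3.6, 4.43 and 2.91 at 24 h, and its log2 change was -1.41 (SE 0.27, adjusted p = 0.00037). The groups were well apart for both genes. REV1, which recruits these polymerases, had a log2 change of -1.34 (SE 0.46, adjusted p = 0.041), a call lost without any 1 of the 6 libraries (adjusted p of 0.0567 to 0.14). Of 23 kinases and adaptors of damage signalling, MDC1, a scaffold at breaks, and CDC25B, a phosphatase that drives mitotic entry, were lower and none was higher. Over all genes 12.5% were lower and 4.75% higher, so this list was not called more often. The call of CDC25B was lost without any 1 of the 6 libraries (adjusted p of 0.0584 to 0.175), and none of 7 mismatch repair and 16 BCL2 family genes was called.

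The genes of the G1/S transition and DNA replication were higher in 14 of 45 cases, lower in none, and had a median log2 change of 0.71. PCNA, the sliding clamp of the replicative polymerases, stood at 131, 107 and 134 in the untreated libraries and 372, 423 and 329 at 24 h. The untreated libraries lay close together and far below those at 24 h, and the log2 change was 1.59 (SE 0.34, adjusted p = 0.00147). CDC6, which loads the replicative helicase, stood at 44.5, 43.2 and 47.1 in the untreated libraries and 129, 115 and 88.5 at 24 h, also without overlap, at a log2 change of 1.27 (SE 0.30, adjusted p = 0.00283). CDC45, MCM10, FEN1, RRM1, RRM2 and TK1, which start replication, process its intermediates or make its nucleotides, were among the others called. CCNE1, the G1/S cyclin, was higher in all 3 libraries at 24 h (37.2, 48.8 and 39.3 against 19.4, 26.6 and 17.5), but its log2 change of 0.96 (SE 0.47, adjusted p = 0.164) was not called. CCND1, the cyclin of early G1, stood at 112, 95.8 and 136 in the untreated libraries and 105.2, 108 and 109 at 24 h and overlapped. Among the 26 members that no other gene overlaps, 9 were higher. The count of 14 fell to between 4 and 9 when 1 of the 6 libraries was left out and to 0 without rescaling, where the list's median was still 0.26.

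Of 43 genes of G2/M and mitosis 2 were higher and 2 were lower, beside 17.2% called over all genes, and the median log2 change was 0.14. MKI67, the nuclear antigen of cycling cells, stood at 304, 292 and 329.9 in the untreated libraries and 48.7, 37.4 and 47.3 at 24 h. The 3 values at 24 h lay together, far below all untreated ones, and the log2 change was -2.77 (SE 0.30, adjusted p = 1.05e-07). CENPF, a large kinetochore protein, stood at 121, 126 and 115 in the untreated libraries and 65.4, 53.3 and 62.3 at 24 h, a log2 change of -0.996 (SE 0.28, adjusted p = 0.0144), whose call was lost without the second library at 24 h (adjusted p = 0.0687). CDK1, the kinase that starts mitosis, went the other way at 93.7, 85.5 and 63.1 in the untreated libraries and 169.9, 176 and 160.1 at 24 h, with a log2 change of 1.07 (SE 0.34, adjusted p = 0.0255). Its call was lost without the third untreated library (adjusted p = 0.122) or any 1 of the libraries at 24 h (0.0516 to 0.0771). The checkpoint gene BUB3 was also higher, at 1.03 (SE 0.26, adjusted p = 0.00617). Without rescaling the calls of CENPF, CDK1 and BUB3 were lost. MKI67 and CENPF have long transcripts, a property described below. Of 58 replication-dependent histone genes 1, HIST1H4A, was higher.

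Many nuclear-encoded genes of oxidative phosphorylation were higher, whose products form the respiratory chain complexes and the ATP synthase of mitochondria. Of 76 members 30 were higher and none was lower, with a median log2 change of 1.08. The called members came from every complex, among them NDUFS1 and NDUFB4 of complex I, SDHB and SDHD of complex II, UQCRC1 and UQCRFS1 of complex III, COX5B and COX7B of complex IV and ATP5B and ATP5G1 of the ATP synthase. ATP5G1, a ring subunit of the synthase, stood at 19.6, 21.1 and 6.4 in the untreated libraries and 55.8, 76.0 and 59.4 at 24 h. Its log2 change was 2.10 (SE 0.50, adjusted p = 0.00328). COX6C, a subunit of cytochrome oxidase, stood at 20.6, 32.9 and 15.1 in the untreated libraries and 73.2, 92.7 and 78.0 at 24 h, with a log2 change of 1.85 (SE 0.45, adjusted p = 0.00458). Their share of deposited TPM was 1.03 to 1.13% without drug and 1.57 to 1.85% at 24 h. Without rescaling 9 members were higher and the list's median was 0.63, and leaving out 1 of the 6 libraries left 10 to 24.

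NRF1 is a transcription factor known for binding GC-rich sites in the promoters of respiratory chain genes. RefSeq promoters (GRCh38.p14) of 250 bases before the start were found for 62 of the 76 members, and 13 of these, or 21%, held GCGC and TGCGC with any 1 base between them, on either strand, against 8.89% of 12931 promoters of tested genes. Among the 23 called members with a promoter the count was 6, or 26.1%. The stretches around the first match are shown for 4 of them, 5′ to 3′ along the gene, with the match in capitals.
ATP5O, chr21:33915805-33915858, minus strand: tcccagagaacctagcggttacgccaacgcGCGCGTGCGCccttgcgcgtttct
SDHD, chr11:112086733-112086802, plus strand: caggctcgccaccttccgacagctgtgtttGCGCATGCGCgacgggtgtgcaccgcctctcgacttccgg
UQCRFS1, chr19:29213152-29213212, minus strand: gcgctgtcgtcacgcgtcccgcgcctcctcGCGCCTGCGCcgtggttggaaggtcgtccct
UQCRC1, chr3:48609654-48609723, minus strand: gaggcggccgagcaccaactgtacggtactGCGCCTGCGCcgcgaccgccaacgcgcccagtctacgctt
These 4 genes had log2 changes of 1.55, 1.53, 1.09 and 1.02. The match is a description of the letters and no evidence of binding. It was found in 12.7% of promoters of all higher genes, but in 3.7% of those of higher cytosolic ribosomal protein genes. CCGGAAGT, the letters of ETS factors, was held by 14.5% of the oxidative phosphorylation promoters against 5.99% of all. In the replication list, 13 of 36 promoters held TTTCCCGC or TTTGGCGC, the letters bound by E2F factors, against 2.82% of all promoters, yet among the 13 called members with a promoter the match was found in 1, PCNA.
PCNA, chr20:5126644-5126711, minus strand: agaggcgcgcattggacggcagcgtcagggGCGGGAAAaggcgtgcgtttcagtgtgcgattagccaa

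Many genes of protein synthesis were higher. Of 78 cytosolic ribosomal protein genes 35 were higher and none was lower, with a median log2 change of 1.06. RPL39, a small protein of the large subunit, stood at 1313, 1261 and 1115 in the untreated libraries and 2911, 4288 and 3483 at 24 h. RPS3A, of the small subunit, stood at 667, 635 and 609 in the untreated libraries and 1619.9, 2377 and 1836 at 24 h. In both, each library at 24 h lay far above each untreated one, with log2 changes of 1.52 (SE 0.46, adjusted p = 0.0198) and 1.59 (SE 0.50, adjusted p = 0.0258). The call of RPL39 was lost without the third untreated library (adjusted p = 0.0685) or the second at 24 h (0.0842), and that of RPS3A without any 1 library but the first at 24 h (0.052 to 0.102). Ribosomal protein genes have many processed copies in the genome, and how the authors shared reads between the copies is not known here. Mitochondrial ribosomal proteins were higher in 13 of 57 cases and lower in none (median 0.88), and translation factors were higher in 14 of 35 and lower in 2 (median 0.70). EIF3 subunits made up much of the higher group. PABPC1, the poly(A)-binding protein, stood at 341, 407 and 277 in the untreated libraries and 186, 171 and 109 at 24 h and was lower without overlap, at a log2 change of -1.15 (SE 0.26, adjusted p = 0.00245). Left-out libraries brought the cytosolic count down to between 8 and 17 and the mitochondrial count to between 2 and 8, and the latter was 0 without rescaling. The count of higher translation factors was then 6 to 9.

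Proteasome subunits, which build the particle that degrades ubiquitinated proteins, were higher in 16 of 31 cases and lower in none, with a median log2 change of 0.98. PSMB5, the subunit that proteasome inhibitors bind, stood at 47.7, 40.6 and 48.3 in the untreated libraries and 117, 137 and 101.3 at 24 h. The groups were well apart, and the log2 change was 1.35 (SE 0.27, adjusted p = 0.000643). PSMA4, of the outer ring, and PSMB4 had log2 changes of 1.35 (SE 0.32, adjusted p = 0.00311) and 1.38 (SE 0.33, adjusted p = 0.0036). Of the 18 subunits that no other gene overlaps, 12 were higher. The count was 5 to 10 with 1 library left out and 3 without rescaling. Among chaperones, 5 of 21 were higher (HSPA8, HSPE1 and the chaperonin genes CCT2, CCT3 and CCT5) and none was lower, and 2 to 4 were higher with 1 library left out.

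Glycolysis had 8 of 25 members higher and none lower, with a median log2 change of 0.36. TPI1, triosephosphate isomerase, stood at 177, 157 and 178 in the untreated libraries and 328, 367 and 327 at 24 h. PGK1, phosphoglycerate kinase, stood at 88.5, 91.1 and 105.3 in the untreated libraries and 216, 205 and 202 at 24 h. The groups did not overlap, and the log2 changes were 0.99 (SE 0.20, adjusted p = 0.000574) and 1.12 (SE 0.27, adjusted p = 0.00402). TXNIP, a brake on glucose uptake, stood at 32.2, 37.5 and 33.2 in the untreated libraries and 49.7, 40.2 and 33.8 at 24 h and overlapped between the groups, at 0.24 (SE 0.28, adjusted p = 0.645). With 1 library left out 4 to 7 of the 25 were higher, and without rescaling none was called and their median was 0.

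CPT1A, the outer-membrane carnitine palmitoyltransferase that admits long-chain fatty acids to mitochondria and the gene the study's title names, stood at 4.52, 4.66 and 10.4 in the untreated libraries and 3.72, 5.61 and 4.36 at 24 h. The groups overlapped, with a log2 change of -0.36 (SE 0.33, adjusted p = 0.525). Of 39 genes of fatty acid oxidation 5 were higher and 3 were lower, beside 4.75% and 12.5% of all genes, and the median was 0.01. Over all genes 17.2% were called in either direction. The higher members included HADH, the hydroxyacyl-CoA dehydrogenase, at 10.2, 9.49 and 9.65 in the untreated libraries and 19.6, 20.5 and 22.6 at 24 h, and ETFA, which passes electrons from acyl-CoA dehydrogenases to the respiratory chain. Their log2 changes were 1.02 (SE 0.36, adjusted p = 0.0458) and 1.10 (SE 0.36, adjusted p = 0.0346). The call of HADH was lost without any 1 of the 6 libraries (adjusted p of 0.0808 to 0.115), and that of ETFA without the first or the second untreated library or the second or the third at 24 h (0.0934 to 0.12). With 1 library left out the list had 0 to 3 higher and 0 to 2 lower members. The nuclear receptors PPARA and PPARD and the acyl-CoA synthetase ACSL5 were lower. FASN, the fatty acid synthase, stood at 35.7, 35.7 and 33.6 in the untreated libraries and 14.1, 13.2 and 20.2 at 24 h. Its groups did not overlap, but the log2 change of -1.12 (SE 0.42, adjusted p = 0.0618) was not called, and of 24 synthesis genes none was higher and 2, DGAT1 and THRSP, were lower. In cholesterol synthesis and uptake, MSMO1 and EBP were higher and SREBF2, the pathway's transcription factor, was lower among 25 genes, though no member was lower with any 1 library left out.

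CXCL8, the chemokine interleukin 8, stood at 59.1, 63.5 and 39.5 in the untreated libraries and 283, 218 and 170.1 at 24 h. Its log2 change was 2.03 (SE 0.42, adjusted p = 0.000911). CSF2, the cytokine GM-CSF, stood at 24.8, 25.1 and 17.4 in the untreated libraries and 93.4, 59.8 and 71.6 at 24 h. NFKBIA, the inhibitor that NF-kB itself induces, stood at 83.1, 89.7 and 120.4 in the untreated libraries and 172, 165 and 157 at 24 h. Both were free of overlap, with log2 changes of 1.69 (SE 0.37, adjusted p = 0.00149) and 0.76 (SE 0.18, adjusted p = 0.00257). These 3 were the higher members among 32 NF-kB targets and cytokines, whose median log2 change was 0.38, and TRAF1 was the 1 lower member. SLPI, a secreted inhibitor of proteases, stood at 50.5, 45.9 and 46.4 in the untreated libraries and 144, 225 and 226 at 24 h, with a log2 change of 2.01 (SE 0.47, adjusted p = 0.00293). Of 40 interferon-stimulated genes 1, IFITM3, was higher and IFIT1, OAS2, OAS3 and IRF7 were lower, with a median log2 change of 0.001. Of 33 immediate early genes none was higher and NR4A3, CYR61 and CTGF were lower. The shares over all genes were 4.75% higher and 12.5% lower, so neither list was called more often. The calls of IFITM3, IFIT1, OAS3, CYR61 and CTGF were lost in fits that left out 1 library.

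NF-kB binds sites such as GGAATTTCC, or GGG and TTTCC with any 2 bases between them. On either strand 16 of 25 promoters of this list held one of them, against 2.09% of all promoters, as the list was drawn from known targets. The matches in the promoters of the higher genes CXCL8 and NFKBIA are shown with the matching letters in capitals, and CSF2 had none in its 250 bases.
CXCL8, chr4:73740448-73740516, plus strand: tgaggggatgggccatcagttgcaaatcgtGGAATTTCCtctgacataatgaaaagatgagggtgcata
NFKBIA, chr14:35404792-35404860, minus strand: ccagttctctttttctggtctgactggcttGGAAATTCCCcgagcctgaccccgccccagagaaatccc
In NFKBIA a pair of matches overlap, and both are in capitals.

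Of 28 NRF2 targets, genes of the oxidative stress response, 8 were higher and 2 were lower, with a median log2 change of 0.49. PRDX1, a peroxide reductase, stood at 302, 227 and 271 in the untreated libraries and 728, 810.5 and 593 at 24 h, without overlap, at a log2 change of 1.41 (SE 0.31, adjusted p = 0.00149). NQO1, SRXN1, TXN, GSR, PGD, TALDO1 and FTL were higher too, of which SRXN1 shares much of its sequence with another annotated gene. AKR1C3 and ABCC3 were lower. The count of higher members was 4 to 6 with 1 library left out and 0 without rescaling. Glutathione transferases were higher in 4 of 14 cases and lower in 1. GSTP1, known for conjugating platinum drugs to glutathione, stood at 245, 260.4 and 225 in the untreated libraries and 519.9, 499 and 533 at 24 h. MGST3, a membrane-bound relative, stood at 1.81, 2.53 and 5.2 in the untreated libraries and 13.9, 19.5 and 22.1 at 24 h. The log2 changes of GSTP1 and MGST3 were 1.09 (SE 0.19, adjusted p = 0.000161) and 2.28 (SE 0.54, adjusted p = 0.00314). Without rescaling the call of GSTP1 was lost and that of MGST3 was kept. None of 8 metallothioneins was called. In the integrated stress response, ATF4 and its targets SHMT2, MTHFD2, SARS and MARS were higher and ATF5 was lower among 32 genes. In the unfolded protein response 4 of 21 (XBP1, PDIA4, CALR and MANF) were higher, and HSPA5 and SYVN1 were lower. With 1 library left out, 0 to 3 of the 21 were higher and 0 to 2 were lower.

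Platinum and drug transport had 2 higher and 5 lower members among 16. SLC31A1, the copper transporter CTR1 that also admits platinum, stood at 6.79, 8.94 and 5.12 in the untreated libraries and 10.4, 7.64 and 9.08 at 24 h and overlapped, at 0.36 (SE 0.30, adjusted p = 0.488). SLC31A2, its relative CTR2, stood at 16.8, 13.9 and 34.9 in the untreated libraries and 4.47, 4.67 and 6.73 at 24 h. ABCC1, an exporter of conjugated drugs, stood at 20.4, 25.3 and 19.4 in the untreated libraries and 7.87, 9.56 and 8.31 at 24 h. Both were lower in each library at 24 h, with log2 changes of -1.77 (SE 0.36, adjusted p = 0.000835) and -1.24 (SE 0.26, adjusted p = 0.00118). ATP7B, a copper exporter, was listed at 0 in all 6 libraries. The exporters ABCC3 and ABCC5 and the endocytic receptor LRP1 were lower too. ABCG2, a drug exporter, and LRRC8D, a subunit of volume-regulated channels, were the higher members.

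**Figure D3:**
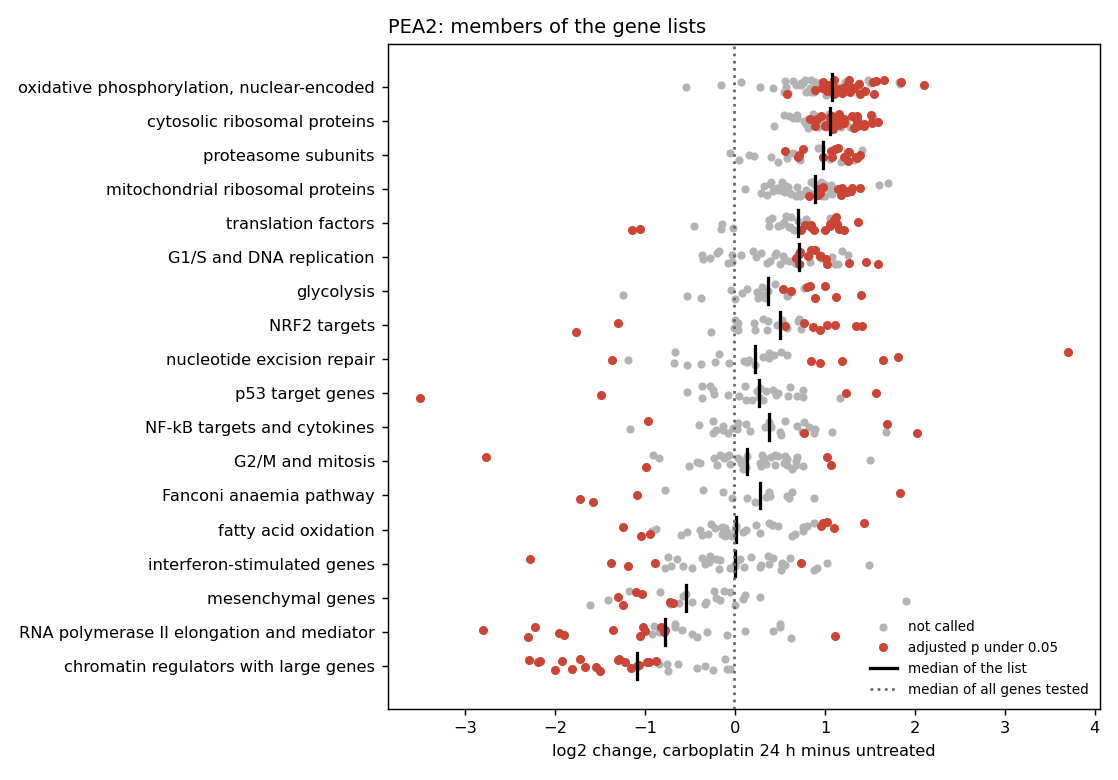
Log2 change at 24 h against untreated PEA2 (x axis) for each tested member of 18 gene lists (rows), red where called. Black bars mark the list medians, 1.08 for oxidative phosphorylation and -1.10 for large chromatin regulators, and the dotted line marks the median of all genes, -0.01.

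Many large chromatin regulators were lower. Of 29 chromatin regulators with large genes, 19 were lower and none was higher, and the median log2 change was -1.10. ARID1A, a subunit of the SWI/SNF remodelling complex, stood at 15.6, 18.8 and 15.9 in the untreated libraries and 2.92, 3.39 and 3.97 at 24 h. KMT2A, a histone H3 methyltransferase, stood at 31.5, 32.4 and 28.7 in the untreated libraries and 6.09, 7.13 and 5.15 at 24 h. The groups did not overlap, and the log2 changes were -2.01 (SE 0.33, adjusted p = 5.56e-05) and -2.17 (SE 0.31, adjusted p = 8.36e-06). ARID1B and ARID2 of the same complex, the methyltransferases KMT2C, SETD2 and NSD1, the remodellers CHD7, BPTF and EP400 and the corepressor NCOR1 were lower too. Among the 12 members that no other gene overlaps 7 were lower, and 17 to 19 of all members were lower with 1 library left out.

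Of 28 genes of RNA polymerase II elongation and the mediator 12 were lower and 1 was higher, with a median of -0.78. POLR2A, the largest subunit of the polymerase, stood at 31.4, 35.4 and 29.7 in the untreated libraries and 2.95, 3.65 and 4.7 at 24 h. No library at 24 h came near an untreated one, and the log2 change was -2.81 (SE 0.26, adjusted p = 3.49e-09). The acetyltransferases CREBBP and EP300 had log2 changes of -2.22 (SE 0.27, adjusted p = 7.53e-07) and -1.96 (SE 0.23, adjusted p = 3.29e-07). CDK7, the kinase of TFIIH, was the higher member.

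Of 13 long noncoding nuclear RNAs, MALAT1, NEAT1 and KCNQ1OT1 were lower and none was higher. MALAT1, an RNA of nuclear speckles, stood at 889, 911 and 767 in the untreated libraries and 86.1, 136 and 88.5 at 24 h. NEAT1, which builds paraspeckles, stood at 50.8, 56.8 and 36.2 in the untreated libraries and 2.44, 2.78 and 3.44 at 24 h. Both were lower in each library at 24 h than in each untreated one, with log2 changes of -3.06 (SE 0.37, adjusted p = 4.59e-07) and -3.64 (SE 0.43, adjusted p = 4.59e-07). The host genes of small nucleolar RNAs went the other way in 4 of 18 cases (GAS5, SNHG5, SNHG16 and ZFAS1), and SNHG3 was lower. GAS5, whose RNA carries many of them in its introns, stood at 56.9, 111 and 49.8 in the untreated libraries and 178, 224 and 178 at 24 h, and its call was lost without the third untreated library (adjusted p = 0.0733) or the second at 24 h (0.0536). With 1 library left out, 0 to 4 of the 18 were higher.

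TNFRSF11B, which encodes osteoprotegerin, a secreted decoy receptor for RANKL and TRAIL, stood at 221, 256 and 345 in the untreated libraries and 4.58, 5.93 and 16.1 at 24 h. The third library at 24 h was the highest of its group, and the log2 change was -4.95 (SE 0.46, adjusted p = 5.54e-09). RFX7, a transcription factor with a winged-helix domain, stood at 97.5, 111 and 174 in the untreated libraries and 2.96, 2.32 and 5.28 at 24 h, at a log2 change of -4.84 (SE 0.35, adjusted p = 3.39e-11). No other annotated gene overlaps either of them.

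Pregnancy-specific glycoproteins, immunoglobulin-like proteins known from the placenta and encoded side by side, were lower in 8 of 10 tested cases, a family examined after its members' values were seen. PSG1 stood at 92.4, 83.2 and 158 in the untreated libraries and 1.16, 2.58 and 1.86 at 24 h. PSG6 stood at 43.9, 36.2 and 71.1 in the untreated libraries and 0.679, 0.334 and 1.82 at 24 h. The log2 changes of PSG1 and PSG6 were -5.26 (SE 0.28, adjusted p = 5.79e-14) and -4.74 (SE 0.31, adjusted p = 2.78e-12). PSG8 stood at 13.4, 7.09 and 12.5 in the untreated libraries and 9.16, 6.19 and 11.2 at 24 h and overlapped, and PSG3 was at most 1.59 in all 6 libraries. These genes resemble each other, and PSG1 and PSG6 share some of their 50-base stretches with other annotated genes, so reads may be split between them.

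Of 501 tested zinc finger genes with a ZNF symbol 6 were higher and 53 were lower, with a median log2 change of -0.12, beside 4.75% and 12.5% of all genes. The named lower genes GPR82, LRRTM2, ERVFRD-1, OR13H1, PLAC4 and C3orf65 lie inside CASK, CTNNA1, SMIM13, IGSF1, BACE2 and IGF2BP2, each on the opposite strand. GPR82 stood at 52.5, 59.5 and 78.9 in the untreated libraries and 0.719, 0.568 and 2.31 at 24 h, whereas the log2 change of its host CASK was -0.32 (SE 0.32, adjusted p = 0.57). LRRTM2 stood at 30.3, 33.1 and 54.7 in the untreated libraries and 0.17, 0.167 and 0.906 at 24 h, beside a log2 change of 0.11 (SE 0.21, adjusted p = 0.827) for its host CTNNA1. The hosts BACE2 and SMIM13 were not called either, at 0.17 (adjusted p = 0.848) and 0.54 (adjusted p = 0.28), whereas IGSF1 and IGF2BP2 were lower too, at -3.19 (adjusted p = 9.91e-07) and -0.84 (adjusted p = 0.0181). Of the 319 genes that were lower by more than 3 on the log2 scale, 254 were matched to an annotation, 113 lay inside another gene and 110 of these lay on the opposite strand. These 113 genes each had a tested host and some shared a host, so the distinct hosts were fewer than 113. Of these distinct hosts 19 were lower and 3 were higher, with a median log2 change of -0.17. Over all genes 12.5% were lower and 4.75% higher, with a median of -0.01. Among all tested genes with a match, 564 protein-coding genes, 234 long noncoding genes and 72 pseudogenes lay inside another gene. Those not inside another gene numbered 14872, 781 and 391.

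Position and length divided the calls more widely. Of 419 protein-coding genes inside another gene on the opposite strand, 144 were lower, or 34.4%, against 16 of 145, or 11%, inside another gene on its own strand. Protein-coding genes with any overlap on the opposite strand were lower in 14.9% of 7497 cases, those with none in 7.98% of 6864, and those with an overlap on the same strand alone in 7.16% of 1075. Genes named as antisense were lower in 132 of 565 cases and higher in 3. The libraries came from a stranded kit per the labels, but the strand setting of the authors' counting is unknown, so reads of such a gene and of its partner may not be told apart, and the part of this in the results was not tested. Of the genes given above with values, MALAT1, FANCC, FANCA, POLH, REV1, REV3L, ARID1A, KMT2A, EP300 and SLC31A2, which were lower, and FAS, RPA3, COX6C, RPS3A, TPI1, PGK1, ETFA, PRDX1 and GAS5, which were higher, overlap an annotated gene on the opposite strand. MKI67, CENPF, POLR2A, CREBBP, NEAT1, RFX7, TNFRSF11B, ABCC1 and PABPC1, which were lower, overlap none.

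Short transcripts were more often higher and long ones more often lower. With the protein-coding genes in 5 groups of equal number by their longest annotated transcript, the shortest group, up to 2019 bases, was higher in 11% and lower in 7.9% of cases, and the longest group, from 5777 bases, was higher in 1.94% and lower in 19.7%. The median log2 change went from 0.16 in the shortest to -0.27 in the longest group. Among genes that no other gene overlaps, the shortest group was higher in 11.5% and lower in 5.83% of cases, and the longest in 2.04% and 15.6%. The lists above follow this order in part. The median transcript was 1432.5 bases in oxidative phosphorylation and 1841.5 in cytosolic ribosomal proteins. It was 6637 in RNA polymerase II and mediator genes and 10341 in chromatin regulators, a list chosen for large genes. Other lists did not follow it. Replication-dependent histones had a median transcript of 463 bases, yet 1 of 58 was higher and their median log2 change was 0.30. Kinases and adaptors of damage signalling had one of 4769 bases and a median log2 change of 0.15. The part of length in each list's change was not tested.

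**Figure D4:**
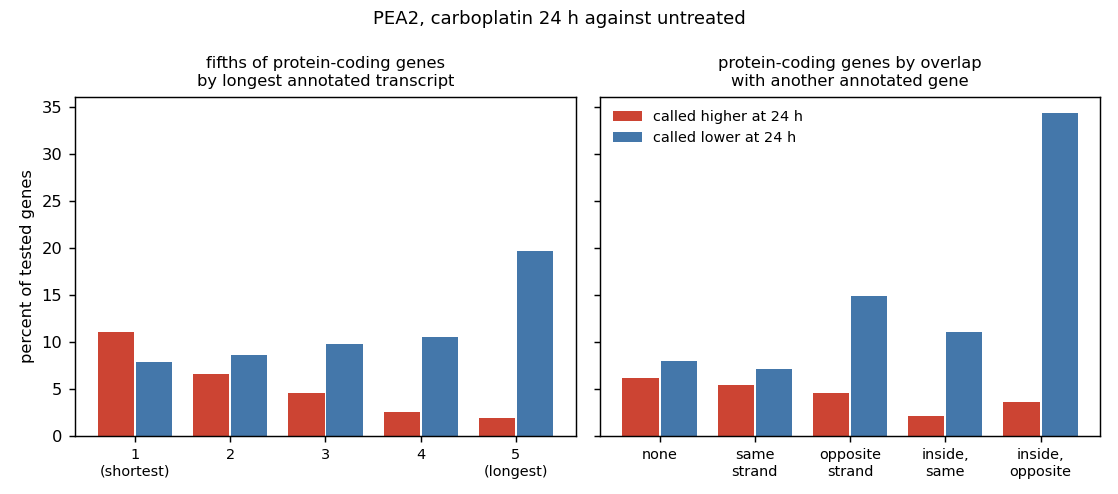
Percent of tested protein-coding genes called higher (red) and lower (blue) in PEA2 at 24 h, in 5 groups of equal number by longest annotated transcript (left) and by overlap with another annotated gene (right), where the last 2 pairs of bars are genes that lie inside another gene. The share of lower genes is 7.9% in the shortest and 19.7% in the longest group, and 34.4% for genes inside another on the opposite strand.

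Genes that mark the ovarian epithelial state were called about as often as the 17.2% of all genes, with 4 of 22 Müllerian and serous and 4 of 31 epithelial genes called. PAX8, the Müllerian lineage factor, stood at 62.2, 76.2 and 80.6 in the untreated libraries and 33.4, 26.1 and 39.9 at 24 h. MUC16, which encodes the tumour marker CA125, stood at 17.8, 17.4 and 14.7 in the untreated libraries and 0.339, 0.61 and 0.401 at 24 h. MUC16 was under 1 in all libraries at 24 h, and the log2 changes were -1.13 (SE 0.25, adjusted p = 0.00168) and -3.60 (SE 0.35, adjusted p = 1.1e-08). With SLPI and STMN1 higher, 2 of 22 Müllerian and serous genes were higher and 2 were lower. Of 31 epithelial junction and keratin genes 2, CLDN7 and CD24, were higher and 2, MUC1 and ESRP2, were lower. Of 27 mesenchymal genes none was higher and 6 were lower, with a median log2 change of -0.55. FN1, which encodes fibronectin, stood at 2218, 2109.6 and 1962 in the untreated libraries and 1101, 982 and 983 at 24 h. MMP2, a matrix protease, stood at 79.6, 55.6 and 55.0 in the untreated libraries and 28.0, 28.2 and 29.2 at 24 h. The groups did not overlap in either gene, and the log2 changes were -1.04 (SE 0.36, adjusted p = 0.0475) and -1.11 (SE 0.28, adjusted p = 0.00579). The call of FN1 was lost without any 1 of the 6 libraries (adjusted p of 0.0886 to 0.123), and FBN1, ACTA2, ZEB1 and ZEB2 were lower as well. Between 1 and 4 of the 27 were lower with 1 library left out. The summed fibroblast markers named above were lower at 24 h too, and were 6.88 or less in each library.

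To compare the later with the earlier time, the libraries at 24 h were compared with the 2 libraries at 8 h that listed at least 12000 genes. No gene was called (0% in either direction). The smallest limma adjusted p was 0.166, and 259 genes had an unadjusted p under 0.05. Cultures at 8 h and 24 h with the same number had the same passage, and with that number as a block 2 genes were higher and 1 was lower. The median SE of a difference was 0.43 on the log2 scale, and a p above the threshold does not show that the times were alike. At 8 h MKI67 stood at 69.3 and 46.5, CXCL8 at 161 and 324 and POLR2A at 3.75 and 2.68. These ranges overlapped the values at 24 h, with log2 differences of -0.35 (SE 0.34), -0.06 (SE 0.47) and 0.17 (SE 0.29). Against the same untreated libraries, which both comparisons share, 633 genes (3.51%) were higher and 1935 (10.7%) lower at 8 h, and 856 and 2251 at 24 h. The median log2 change of oxidative phosphorylation genes was 1.04 at 8 h and 1.08 at 24 h, that of replication genes 0.55 and 0.71, that of the integrated stress response -0.16 and 0.43, and that of chromatin regulators -0.97 and -1.10.

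PEO1, the platinum-sensitive line of another patient's pair, gave a second line with 3 complete libraries in both groups. The difference of the 24 h changes, PEA2 minus PEO1, was called above 0 for 181 genes (1%) and below 0 for 135 (0.749%), together 1.75%. In PEO1 itself 2827 genes (15.7%) were higher and 4128 (22.9%) lower at 24 h. Many of the differences concerned genes that 1 line hardly expressed: of the 181, 82 were under 1 rescaled TPM in all 6 PEA2 libraries, and of the 135, 58 were under 1 in all 6 PEO1 libraries. The lines come from different patients and differ in more than resistance, so line, patient and resistance cannot be told apart. Untreated PEO1 cultures were at passage 9, 10 and 11. Those at 24 h were at passage 12 and 13, with none given for the third. Passage and treatment therefore cannot be told apart in PEO1 either, nor in the difference of changes. The counts were 462 and 334 without the third untreated PEO1 library. Those above 0 were 110 without the second untreated PEO1 library, 112 without the third PEA2 library at 24 h and 118 without the third PEO1 library at 24 h, and those below 0 were 89 without the first or the third PEO1 library at 24 h. They were 16 and 30 with all 54 libraries.

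Several damage and inflammation genes were among them. The differences of the 7 genes given next kept their direction with all 54 libraries, but none was called there (adjusted p of 0.187 to 1). GADD45A, nearly level in PEA2, went in PEO1 from 42.8, 23.4 and 35.8 to 266, 215 and 319, a log2 change of 2.96, and the difference was -2.71 (SE 0.47, adjusted p = 0.000765). TXNIP went in PEO1 from 8.19, 15.4 and 6.13 to 62.4, 60.5 and 65.7, against no call in PEA2, with a difference of -2.39 (SE 0.40, adjusted p = 0.000424). Both started lower in untreated PEO1 than in untreated PEA2 and ended higher. CXCL8 was 2.09, 0.683 and 2.19 in untreated PEO1 and 158, 112 and 122 at 24 h, a log2 change of 5.68 beside 2.03 in PEA2, where the untreated level was higher. That difference was -3.65 (SE 0.60, adjusted p = 0.000347). IFIT1, an interferon-induced RNA-binding protein, went from 15.6, 13.4 and 8.11 to 6.44, 3.54 and 2.63 in PEA2. In PEO1 it went the other way, from 1.56, 3.84 and 2.45 to 10.8, 10.8 and 10.9, a difference of -3.14 (SE 0.61, adjusted p = 0.00278). The PEA2 call of IFIT1 was lost without the first or the second untreated library or the second or the third at 24 h (adjusted p of 0.0748 to 0.11). It lies inside LIPA on the opposite strand.

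FANCC was lower in both lines but less so in PEA2, since it went in PEO1 from 94.9, 154 and 102.2 to 1.94, 2.89 and 2.92, and the difference was 3.29 (SE 0.45, adjusted p = 3.12e-05). TNFRSF11B was already low in untreated PEO1, at 8.93, 6.36 and 5.85, and stood at 3.61, 2.85 and 3.59 at 24 h. Its log2 change there was -0.87, and the difference was -4.08 (SE 0.65, adjusted p = 0.000278). SPON1, a secreted matrix protein, stood in PEA2 at 151, 159 and 177 and then 103.5, 107 and 123, not a called change, and went in PEO1 from 45.0, 22.8 and 49.2 to 1.11, 0.675 and 0.895, a difference of 3.79 (SE 0.53, adjusted p = 4.09e-05). None of the 76 oxidative phosphorylation, 78 ribosomal protein, 31 proteasome and 29 chromatin genes had a called difference. Their median log2 changes in PEO1 were 1.60, 1.39, 1.35 and -1.59, beside -0.12 for all genes.

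**Figure D5:**
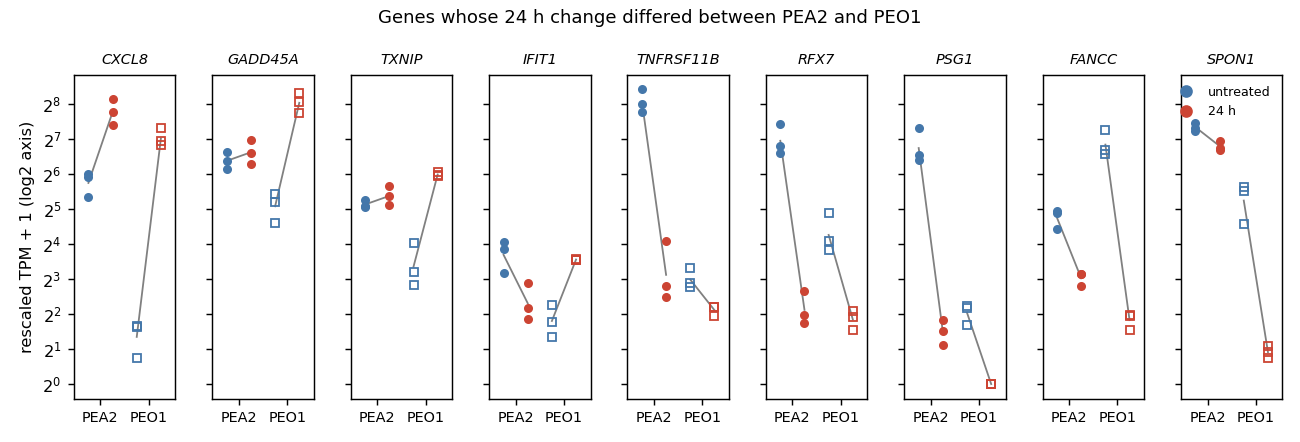
Rescaled TPM plus 1, on a log2 axis, of 9 genes in untreated libraries (blue) and libraries at 24 h (red) of PEA2 (filled circles) and PEO1 (open squares), with grey lines between group means of the log values. GADD45A and TXNIP are nearly level in PEA2 and higher at 24 h in PEO1, and IFIT1 goes in opposite directions.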

How the data were processed

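Total RNA of cell lines was made into libraries with a stranded kit and read as 75-base pairs per the labels, demultiplexed with bcl2fastq 2.18 and referred to genome build hg19 per the submitters' processing notes. The authors deposited 1 table of RSEM TPM for 25435 genes, and no aligner, annotation or strand setting is named in the labels or notes. TPM keeps no depth, so the read depth behind a value is unknown, and an exact 0 may be a failed estimate. A value of 0 is therefore given as listed at 0.

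Of 54 libraries, 42 that listed at least 12000 genes above 0 entered 1 fit, and 12 libraries listing 2678 to 11754 were left out, among them the second of PEA2 at 8 h. TPM were rescaled by the median ratio over 8287 genes, and log2(rescaled TPM + 1) of 18013 genes with at least 1 TPM in at least 3 libraries was fitted with limma 3.58.1 in R 4.3.3 (trend, 17 groups, 25 residual degrees of freedom). Two-sided p-values were adjusted by Benjamini-Hochberg over all genes tested, with 0.05 as the threshold. The code was tested on simulated data. Contrasts were 24 h against untreated, 24 h against 8 h and, for the difference of changes, PEO1.

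Named genes were the 12 of largest log2 change in each direction (groups not overlapping, mean of at least 10), up to 4 called members per gene list (mean of at least 5), a fixed set including CPT1A and CDKN1A, and the 5 of largest difference from PEO1 in each direction. The comparison, the lists and the rules were chosen with earlier results of these data known. Same-numbered PEA2 cultures at 8 h and 24 h share a passage per the labels, and deviations of their libraries correlated at -0.09 and -0.25. With 2 libraries at 8 h in the fit, their deviations mirror each other, so these correlations cannot show whether the cultures were paired. Gene class, length, overlap and copies (genes sharing over 50% of their 50-base stretches with other genes) came from a GENCODE annotation of another build than that of the files, matched by symbol. Promoters came from RefSeq (GRCh38.p14) and matched 12931 tested genes. Alternatives were another pseudocount, filters, scalings, sample sets, a replicate block and leaving out each library. A few members of the gene lists are not reported here by name.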

Additional observations from a re-analysis of the deposited data

Results flagged for a closer look

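The 24 h change differed between PEA2 and PEO1 for 19 of the named genes by the test of the difference itself (limma, Benjamini-Hochberg over all genes), and each value below is the PEA2 log2 change minus the PEO1 log2 change. Chosen as among the largest of many differences, they are descriptions of these libraries. With all 54 libraries 14 of the 19 lost their call, all but ADIPOQ, LINC00645, MYBPHL, OR13H1 and PPP1R17. With a pseudocount of 0.1 those of LINC00645, MCTS2P, PRR34, PSG1, PSG6, PSG7, RFX7 and RHD were lost, and those of MCTS2P and MYBPHL grew to -6.61 and 6.94.

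The differences below 0 that rested on genes nearly absent from PEO1 were those of OR13H1, an olfactory receptor gene, at -5.63, the noncoding LINC00645 at -4.60 and the neuronal phosphatase regulator PPP1R17 at -4.08. OR13H1 and PPP1R17 were listed at 0 in all 6 PEO1 libraries. In PEA2, PPP1R17 stood at 19.4, 21.4 and 44.8 in the untreated libraries and 0.275, 2.42 and 0 at 24 h. TNFRSF11B differed by -4.08, PSG7 by -3.24, PSG1 by -3.22, PSG6 by -2.74 and RFX7 by -2.42. Each was lower at 24 h in PEA2, from an untreated level above that of PEO1. In PEO1 itself PSG7, PSG1, PSG6 and RFX7 were called lower too, at log2 changes of -1.49, -2.04, -1.999 and -2.42. TNFRSF11B was not called there. PSG1 and PSG6 were listed at 0 in every PEO1 library at 24 h, so their values there could fall no further. With a pseudocount of 0.1 the differences of PSG1, PSG6 and PSG7 were -0.83, -0.86 and -1.72 and not called (adjusted p = 0.766, 0.807 and 0.648), and that of RFX7 was -2.41 and not called (adjusted p = 0.0716). MCTS2P, which lies inside HM13 on the same strand, differed by -4.22 (adjusted p = 0.0234), a call lost in 11 of 21 alternatives, among them 9 of the 12 that left out 1 library (highest adjusted p 0.33, with all 54 libraries). It stood at 19.5, 17.2 and 6.08 in the untreated libraries and 0, 1.26 and 0 at 24 h in PEA2, and at 9.19, 10.5 and 16.9 and then 20.8, 22.8 and 21.3 in PEO1.

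CXCL8 differed by -3.65, GADD45A by -2.71 and TXNIP by -2.39, all higher at 24 h in PEO1, while IFIT1 differed by -3.14 with opposite directions in the 2 lines.

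The differences above 0 came from genes lower at 24 h in PEO1. FANCC differed by 3.29 and SPON1 by 3.79, both expressed in both lines. ADIPOQ, the fat cell hormone adiponectin, differed by 3.65, MYBPHL by 3.74, PRR34 by 3.89 and RHD, a blood group antigen gene, by 4.07. These last 4 were at most 1.48 in each PEA2 library. RHD went in PEO1 from 29.9, 22.1 and 38.6 to 0.84, 0.695 and 0, and ADIPOQ from 23.8, 16.2 and 26.1 to 0.945, 0.566 and 0.561.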

How the results depend on the processing

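No called change of a named gene turned its direction under any alternative run, while uncalled changes of BRCA1, CCND1, DDB2, FANCD2, GADD45A, MDM2, PRR34, SLC31A1 and TXNIP took the other sign under 1 or 2 alternatives. With all 54 libraries the PEA2 comparison gave 13 higher and 400 lower genes, without rescaling 147 higher, with only the compared groups in the fit 2093 higher, and leaving out 1 library 367 to 659 higher and 1611 to 1974 lower, against 856 and 2251. Among 7329 genes that no other gene overlaps, 368 were higher and 571 lower, and rescaling over such genes gave 531 higher (both chosen after seeing the data). The difference from PEO1, 181 above and 135 below 0, gave 16 and 30 with all 54 libraries, where those below 0 were the more, 67 and 59 with a pseudocount of 0.1, 79 and 61 among genes that no other gene overlaps, 226 below 0 with only the compared groups, and 110 to 462 and 89 to 334 with 1 library left out. For 24 h against 8 h, where none was called, no filter gave 1 higher and 5 lower, only the compared groups 1 higher, the replicate block 2 higher and 1 lower, and leaving out 1 library 0 to 2 higher and 0 to 1 lower (2 and 1 without the second library at 24 h). For 24 h against untreated the numbers show no pairing (correlations of same-numbered deviations 0.01, 0.03 and 0.13, and only the third pair was the best match of both its libraries). The replicate block there gave 771 higher and 2185 lower, and 162 and 125 for the difference from PEO1, and 10 of 179 named genes lost their call. Named genes lost their call in 141 cases with all 54 libraries, 62 without rescaling and 29 with the other pseudocount. Causes were not tested, beyond the fewer genes or libraries that some alternatives hold by construction. Depth is unknown for TPM, so counting error could not be given.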

Other observations

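The higher members among 21 receptor tyrosine kinases and ligands were EREG and TGFA, ligands of the epidermal growth factor receptor. EREG, which encodes epiregulin, stood at 8.43, 4.32 and 5.5 in the untreated libraries and 12.6, 14.2 and 11.6 at 24 h, and its log2 change of 0.997 (SE 0.26, adjusted p = 0.00638) lost its call without the second untreated library (adjusted p = 0.0516). TGFA, which encodes transforming growth factor alpha, had a log2 change of 0.86 (SE 0.27, adjusted p = 0.0269), and FGFR1, a fibroblast growth factor receptor, one of -1.56 (SE 0.46, adjusted p = 0.0176). The call of TGFA was lost without the first or second library of either group (adjusted p of 0.0597 to 0.143), and that of FGFR1 without the third untreated library or the first or second at 24 h (0.0605 to 0.107). Of these 21 genes 2 were higher and 1 was lower, beside 4.75% and 12.5% of all genes, with a median log2 change of 0.01. With 1 library left out, 0 to 2 were higher and 0 to 1 were lower. ADM, the vasodilator peptide adrenomedullin, was higher at 0.952, 1.99 and 1.83 in the untreated libraries and 6.94, 6.84 and 4.64 at 24 h, with a log2 change of 1.47 (SE 0.37, adjusted p = 0.00558), while ANGPTL4, an inhibitor of lipoprotein lipase, was lower at 15.2, 10.6 and 20.05 in the untreated libraries and 2.85, 1.09 and 2.77 at 24 h, with a log2 change of -2.34 (SE 0.44, adjusted p = 0.000316).

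Of 40 splicing genes 7 were higher, among them SNRPB, SNRPD1 and SNRPD3 of the core that binds small nuclear RNAs, and 2 were lower, PRPF8, a large protein at the centre of the spliceosome, and HNRNPD. Of 37 tested genes with a UBE2 symbol, ubiquitin-conjugating enzymes examined after their values were seen, 6 were higher and 2 were lower. For both groups the shares over all genes were 4.75% higher and 12.5% lower.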
